A study of Homo sapiens with 12 samples.

Results

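The 10 genes described here encode the arginine methyltransferases PRMT1, PRMT2, PRMT3, CARM1, PRMT5, PRMT6, PRMT7 and PRMT9, the PRMT5 cofactor WDR77, and the methylarginine reader TDRD3. They were chosen by name, as writers, cofactor and reader of arginine methylation, from the 57820 genes of the deposited tables, with earlier results of these data known. All 10 passed the filter on low counts in every comparison. RNA was sequenced in 12 libraries, 2 in each of 6 groups, from T47D-MTVL cells, a line derived from the hormone-responsive luminal breast cancer line T47D. Every group carried the same integrated luciferase reporter under the MMTV promoter, was grown in charcoal-stripped serum, and was not given the progestin R5020. Poly(A) RNA came from cells given a control siRNA (siCtrl) or an siRNA against PADI2 (siPADI2), both by lipofection. Poly(A) RNA also came from cells transfected with RNA polymerase II (RNAP2) that bore an HA tag and resisted alpha-amanitin, either wild type (WT) or with the R1810A change. Both of these groups had 24 hours of expression and then 12 hours in alpha-amanitin at 6 µg/ml, a toxin that blocks the cells' own polymerase. Chromatin-associated RNA came from the siCtrl and siPADI2 conditions only. The RNAP2 forms were introduced by transfection, and the share of cells that took them up is not given in the labels.

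Protein arginine methyltransferases move methyl groups from S-adenosylmethionine to arginine side chains. PRMT1, PRMT2, PRMT3, CARM1 and PRMT6 are type I enzymes and make asymmetric dimethylarginine, PRMT5 and PRMT9 are type II enzymes and make symmetric dimethylarginine, and PRMT7 is the type III enzyme, which stops at monomethylarginine. Tudor domain proteins such as TDRD3 and SMN bind the methylated residues. The residue changed in the R1810A form sits in the C-terminal domain of RPB1, the polymerase's main subunit, and is a known methylation site of CARM1 and PRMT5, while PADI2 is a deiminase that converts peptidyl arginine to citrulline. The comparisons here ask how the RNA of the writers and the reader of arginine methylation stood when the deiminase was depleted or the residue was changed.

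Levels are in CPM, counts per 1e6 counts of a library whose total was first scaled by TMM over all 12 libraries. They are therefore not shares of the raw totals. PADI2, the targeted gene, stood at 33.8 and 32.8 CPM in the siCtrl poly(A) libraries and at 2.73 and 2.77 in the siPADI2 libraries. It was also low in the poly(A) libraries labelled R1810A, at 4.54 and 3.31 CPM against 68.9 and 74.0 in the WT libraries. Those 2 groups thus differ in PADI2 RNA as well as in the labelled residue. They also differ in RNA of POLR2A, which encodes RPB1, at 724.9 and 771.0 CPM with WT and 523.5 and 510.5 with R1810A. Its log2 change was -0.53 there (adjusted p = 3.03e-05, edgeR's quasi-likelihood test) and -0.53 after siPADI2 (adjusted p = 5.07e-06). The share of POLR2A counts from the transfected forms was not tested. The poly(A) libraries held between 44.32 and 132.76 counts in units of 1e6, and the chromatin libraries between 2.72 and 7.04. All 8 luminal markers (ESR1, PGR, GATA3, FOXA1, KRT8, KRT18, KRT19, EPCAM) were present, and their summed level was 7030 to 7930 CPM in the siPADI2 and R1810A poly(A) libraries against 12200 to 13700 CPM in the siCtrl and WT libraries. Most of that sum was KRT8, KRT18 and KRT19, and EPCAM went the other way, called higher after siPADI2 (0.62, adjusted p = 5.64e-08) and with R1810A (0.36, adjusted p = 0.000349). Of 8 markers of other cell types 7 were matched, with a summed level of 73.9 to 111 CPM in poly(A) RNA, almost all of it COL1A1 (62.9 to 103 CPM) and ACTA2 (5.81 to 14.3 CPM). The part of either marker list in the results was not tested. No label states that paired libraries are independent cultures. The p-values therefore measure the spread between libraries, which may be technical.

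PRMT6 and WDR77 were the members whose poly(A) RNA changed by more than 1.5-fold after siPADI2, in opposite directions, and their promoters are shown to let the sequence be read beside the values. Each is 300 bases, 250 before and 50 after the RefSeq start site, read 5′ to 3′ on the gene's strand from GRCh38.p14: chr1:107056424-107056723 on the plus strand for PRMT6 and chr1:111449207-111449506 on the minus strand for WDR77. Capitals mark matches, on either strand, to the E-box CACGTG, the CCAAT box CCAAT, the TATA box TATAAA, the GC box GGGCGG and the element TCTCGCGA, and neighbouring matches can overlap.
PRMT6: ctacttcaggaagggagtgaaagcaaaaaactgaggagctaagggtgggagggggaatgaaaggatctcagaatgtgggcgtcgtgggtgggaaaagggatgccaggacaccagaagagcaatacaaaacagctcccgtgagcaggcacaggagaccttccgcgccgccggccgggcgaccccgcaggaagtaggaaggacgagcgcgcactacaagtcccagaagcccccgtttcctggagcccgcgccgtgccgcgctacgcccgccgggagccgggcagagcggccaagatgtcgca
WDR77: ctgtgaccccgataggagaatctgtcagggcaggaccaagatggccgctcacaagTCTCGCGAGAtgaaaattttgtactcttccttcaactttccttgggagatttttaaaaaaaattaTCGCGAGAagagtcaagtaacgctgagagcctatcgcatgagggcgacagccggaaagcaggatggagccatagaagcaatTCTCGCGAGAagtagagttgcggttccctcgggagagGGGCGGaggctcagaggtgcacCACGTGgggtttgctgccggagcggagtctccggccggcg
The PRMT6 promoter held none of the 5 motifs, with a GC content of 63.0%. The WDR77 promoter (54.7% GC) held TCTCGCGA at 3 places, as 5 matches because the word overlaps its own reverse complement there, and held GGGCGG and CACGTG as well. Among 35116 RefSeq promoters of the same length, 1.15% held TCTCGCGA, 7.26% CACGTG, 34.6% CCAAT, 11.5% TATAAA and 45.0% GGGCGG. Among all 10 members, whose promoters were all in the table, TCTCGCGA was in that of WDR77 alone, CACGTG in WDR77 and PRMT3, CCAAT in PRMT1, PRMT5 and TDRD3, and GGGCGG in 7. A match describes the letters only.

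After siPADI2, poly(A) RNA of PRMT6 and TDRD3 rose and that of WDR77, PRMT7 and CARM1 fell, while PRMT1, PRMT2, PRMT3, PRMT5 and PRMT9 did not pass the test (edgeR's quasi-likelihood test, Benjamini-Hochberg adjusted p under 0.05). That is 5 of 10 members, where 56.7% of 18720 tested genes were called. Against a minimum fold of 1.5, 2 members passed, where 18.9% of all genes did. The CPM values of the 2 groups did not overlap for 6 members, against 75.9% of all genes. The median size of change, in absolute log2 units, was 0.17 over the members and 0.42 over all genes. Every gene past the filter on low counts enters the latter, not matched to the members on level, so the medians are not a like comparison. In the libraries labelled R1810A, against WT, WDR77, PRMT9 and PRMT2 fell and TDRD3 rose, so 4 of 10 members were called where 46.9% of 19202 genes were, and 0 of 10 passed the fold of 1.5 where 11.0% did, as the fold of every member was below 1.5. The WT and R1810A values did not overlap for 7 members, against 72.4% of all genes. In bulk RNA, fewer cells that express a gene and less RNA per cell cannot be told apart.

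**Figure D1:**
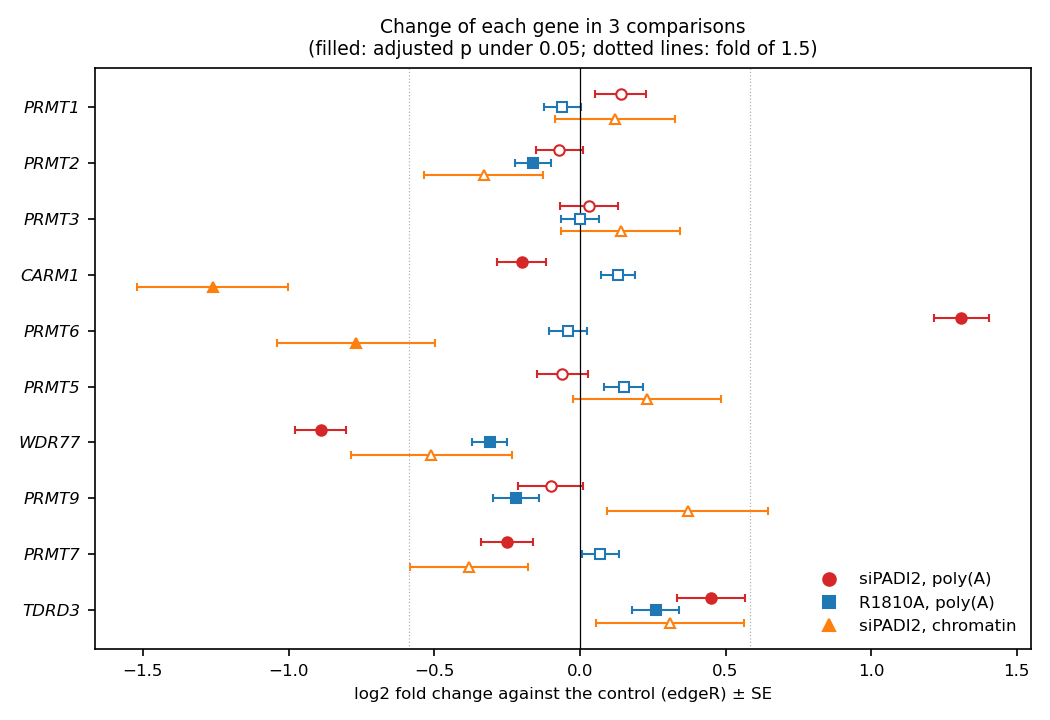
Change of each of the 10 genes (rows) as a log2 fold change against its control, ± SE from edgeR on 2 against 2 libraries, for siPADI2 in poly(A) RNA, R1810A in poly(A) RNA and siPADI2 in chromatin RNA. Filled symbols passed an adjusted p under 0.05, and PRMT6 lies at 1.31 in poly(A) RNA and at -0.77 in chromatin RNA, on opposite sides of 0.

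PRMT6, a nuclear type I enzyme that methylates arginine 2 of histone H3, is encoded by 1 exon block of 2.65 kb at chr1:107599267-107601916 (hg19, plus strand, ENSG00000198890.6). Its poly(A) level was 27.7 and 30.3 CPM with siCtrl and 76.6 and 72.9 CPM with siPADI2, so both siPADI2 libraries lay far above both controls. The log2 fold change was 1.31 (SE 0.0930, adjusted p = 3.32e-15, and 2.96e-09 against the fold of 1.5), a 2.47-fold rise. In the RNAP2 experiment the level was 54.5 and 60.5 CPM with WT and 54.8 and 56.8 CPM in the libraries labelled R1810A. Those groups overlapped, and the log2 difference was -0.04 (SE 0.0649, adjusted p = 0.671). The difference between these 2 effects was itself tested as an interaction and was 1.32 on the log2 scale (SE 0.102, adjusted p = 7.13e-07). The WT libraries stood at 1.98 times the siCtrl mean, a comparison across separate experiments that also differ in toxin and plasmid and that was not tested.

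CARM1, which is recruited by nuclear receptor coactivators and methylates histone H3, CBP/p300 and RNA-processing proteins, lies at chr19:10982189-11033453 (plus strand, ENSG00000142453.7). Its poly(A) level was 95.7 and 95.4 CPM with siCtrl and 88.7 and 84.6 with siPADI2. Both siPADI2 libraries were below both controls, by a small margin: log2 fold change -0.20 (SE 0.0834, adjusted p = 0.0429). This call ended when siCtrl library 1 (adjusted p = 0.107), siPADI2 library 1 (0.117) or siPADI2 library 2 (0.271) was left out and with no filter on low counts (0.194), and with total counts as library sizes the log2 change was -0.01. In the RNAP2 experiment CARM1 stood at 64.6 and 65.9 CPM with WT and 71.6 and 71.1 CPM in the libraries labelled R1810A, higher in both, but the log2 change of 0.13 (SE 0.0578) did not pass the test (adjusted p = 0.0755). It passed with total counts as library sizes (0.20, adjusted p = 0.0184) and with a correction for GC content (0.18, adjusted p = 0.0199). The 2 effects differed by -0.36 (SE 0.0866, adjusted p = 0.00744). That difference was no longer called with total counts as library sizes (-0.21, adjusted p = 0.104), with no filter (-0.27, adjusted p = 0.0892) or without R1810A library 2 (-0.31, adjusted p = 0.078).

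PRMT1, the main source of asymmetric dimethylarginine in most cells, lies at chr19:50179043-50192286 (plus strand, ENSG00000126457.16), and 7.6% of its exonic length overlaps ADM5 on the same strand. It measured 111 and 100.5 CPM with siCtrl and 129.5 and 112 CPM with siPADI2. Both siPADI2 values were higher, but the log2 change of 0.14 (SE 0.0874) did not pass the test (adjusted p = 0.183). PRMT1 was called with total counts as library sizes (0.32, adjusted p = 0.00215), with GC correction (0.22, adjusted p = 0.00737) and with siCtrl library 1 left out (0.23, adjusted p = 0.0312). The WT and R1810A values overlapped, at 116 and 119.7 CPM against 108 and 116 CPM.

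PRMT2, a coactivator of steroid receptors at chr21:48055079-48085036 (plus strand, ENSG00000160310.12), showed almost equal values after the siRNAs, 143 and 142 CPM with siCtrl and 145 and 137 CPM with siPADI2. In the libraries labelled R1810A it measured 137 and 145 CPM against 154 and 163 CPM with WT, lower in both. The log2 change was -0.16 (SE 0.0618, adjusted p = 0.0442). It lost the call without WT library 1 (adjusted p = 0.161), WT library 2 (0.112) or R1810A library 1 (0.231), and with RLE scaling (0.116), total counts (0.244), GC correction (0.123) and DESeq2 (0.118). PRMT3, a cytosolic enzyme that methylates the ribosomal protein RPS2, lies at chr11:20409076-20530840 (plus strand, ENSG00000185238.8). It was level in both experiments, between 32.5 and 39.1 CPM in the 8 poly(A) libraries, with overlapping groups and log2 changes of 0.03 (SE 0.0992) and -0.00 (SE 0.0654).

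**Figure D2:**
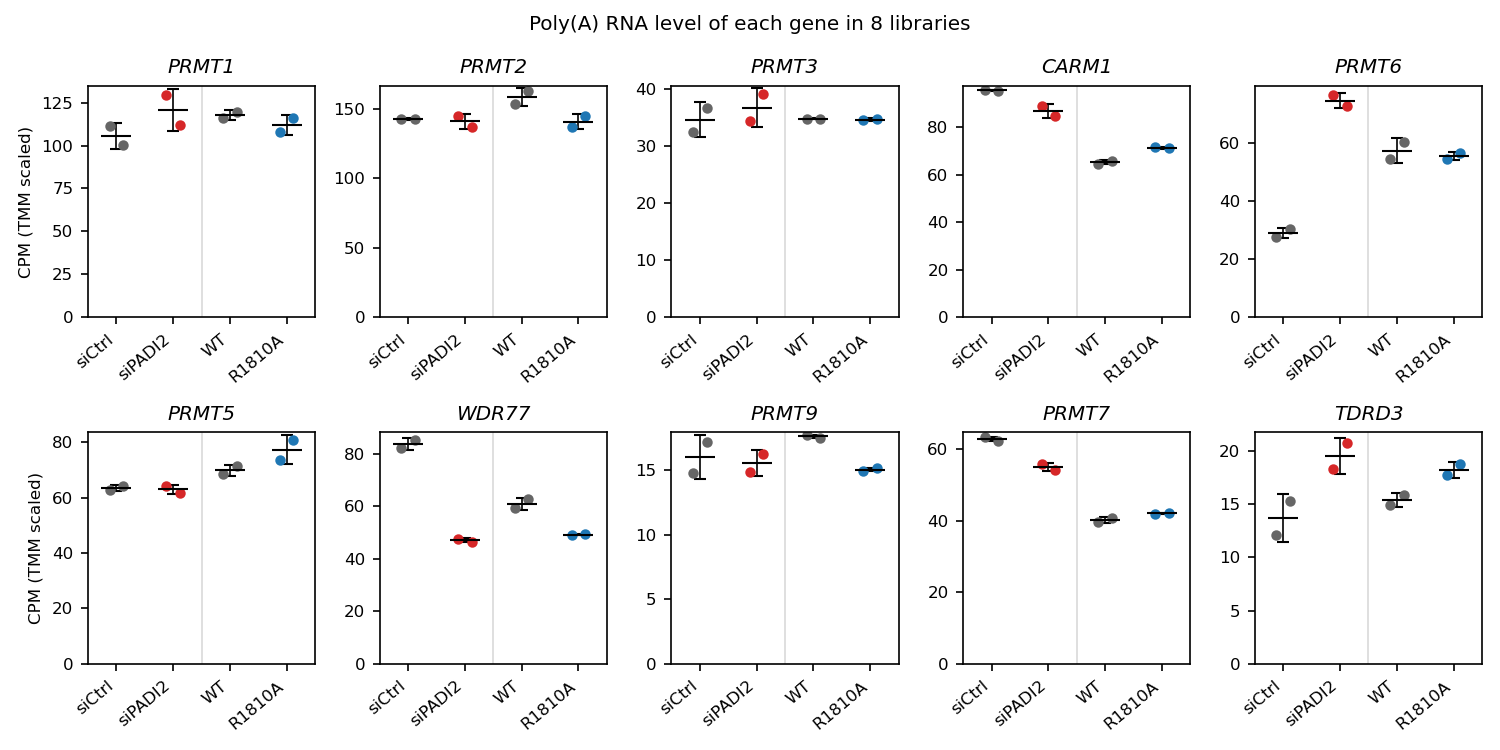
Poly(A) RNA level of each gene in CPM (y axis, from 0, own scale per panel). Points are single libraries, bars the mean ± SD of 2 libraries, and the line divides the siRNA from the RNAP2 experiment. PRMT6 and WDR77 are the panels in which siCtrl and siPADI2 lie farthest apart, at 27.7 and 30.3 against 76.6 and 72.9 CPM for PRMT6 and 82.1 and 85.4 against 47.6 and 46.4 CPM for WDR77.

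PRMT5 works as a complex with WDR77 (also called MEP50), which is needed for its activity towards histones and Sm proteins. PRMT5 lies at chr14:23389720-23398794 (minus strand, ENSG00000100462.11), and 938 bases of it overlap PRMT5-AS1 on the other strand, which the stranded counting separates. Its poly(A) level was 62.7 and 64.2 CPM with siCtrl and 64.2 and 61.9 CPM with siPADI2. The groups overlapped, and the log2 change was -0.06 (SE 0.0873, adjusted p = 0.552). In the RNAP2 experiment it measured 68.4 and 71.4 CPM with WT and 73.6 and 81.0 CPM in the libraries labelled R1810A. Both of the latter were higher, but the log2 change of 0.15 (SE 0.0674) did not pass the test (adjusted p = 0.0824). It passed with total counts as library sizes (0.21, adjusted p = 0.0275), with GC correction (0.18, adjusted p = 0.0428) and without R1810A library 1 (0.24, adjusted p = 0.0102).

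WDR77 lies at chr1:111982512-111991998 (minus strand, ENSG00000116455.9), and 24.0% of its exonic length is shared with AL390195.1 on the same strand, where reads of the 2 genes could not be assigned to either. It measured 82.1 and 85.4 CPM with siCtrl and 47.6 and 46.4 CPM with siPADI2, well apart. WDR77 fell by 0.89 on the log2 scale (SE 0.0873, adjusted p = 2.58e-11, and 0.00102 against the fold of 1.5), a 1.85-fold fall. It also fell in the libraries labelled R1810A, from 59.4 and 62.6 CPM with WT to 49.0 and 49.3 CPM, again without overlap. There the log2 change was -0.31 (SE 0.0603, adjusted p = 0.000990). The fall after siPADI2 was the larger, by an interaction of -0.61 on the log2 scale (SE 0.0895, adjusted p = 0.000193). The call held in all 11 alternative analyses of each comparison, between -0.90 and -0.70 after siPADI2 and between -0.33 and -0.24 for R1810A. The test against the fold of 1.5 was not passed with total counts as library sizes.

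PRMT7, at chr16:68344877-68392466 (plus strand, ENSG00000132600.12), measured 63.2 and 62.4 CPM with siCtrl and 55.8 and 54.1 CPM with siPADI2. Both siPADI2 values were lower, with a log2 change of -0.25 (SE 0.0886, adjusted p = 0.0165). The call was lost without siCtrl library 1 (adjusted p = 0.0556), siPADI2 library 1 (0.0783) or siPADI2 library 2 (0.137) and with no filter (0.0744), and with total counts as library sizes the change was -0.07. In the RNAP2 experiment PRMT7 was at 39.7 and 40.7 CPM with WT and 41.9 and 42.2 CPM with R1810A, a log2 change of 0.07 (SE 0.0627, adjusted p = 0.396). The 2 effects differed by -0.34 (SE 0.0920, adjusted p = 0.0131). This difference was not called with total counts as library sizes (-0.20, adjusted p = 0.155), with no filter (-0.26, adjusted p = 0.146), or without WT library 1 (-0.33, adjusted p = 0.0602) or R1810A library 2 (-0.29, adjusted p = 0.129).

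PRMT9, which methylates the splicing factor SF3B2, lies at chr4:148558936-148605381 (minus strand, ENSG00000164169.8). It was among the lowest members, at 14.8 and 17.2 CPM with siCtrl and 14.9 and 16.3 CPM with siPADI2, overlapping groups with a log2 change of -0.10 (SE 0.112, adjusted p = 0.466) that was called with GC correction (-0.22, adjusted p = 0.0434). In the libraries labelled R1810A it measured 15.0 and 15.2 CPM against 17.7 and 17.6 CPM with WT, a log2 change of -0.22 (SE 0.0780, adjusted p = 0.0315). The call did not survive leaving out any of the 4 libraries in turn, with adjusted p between 0.0619 and 0.229, nor total counts as library sizes (0.110) or DESeq2 (0.105).

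TDRD3 binds asymmetric dimethylarginine on histones and on the RNAP2 C-terminal domain through its Tudor domain and acts with the topoisomerase TOP3B. It lies at chr13:60970591-61148012 (plus strand, ENSG00000083544.9). It measured 12.1 and 15.3 CPM with siCtrl and 18.4 and 20.8 CPM with siPADI2, without overlap. The log2 change of 0.45 (SE 0.116, adjusted p = 0.00119) was called in all 11 alternative analyses, between 0.32 and 0.63. In the libraries labelled R1810A TDRD3 measured 17.7 and 18.8 CPM against 14.9 and 15.8 CPM with WT, a log2 change of 0.26 (SE 0.0799, adjusted p = 0.0181). That call was lost without WT library 1 (adjusted p = 0.133) or R1810A library 2 (0.151) and with GC correction (0.0727). The 2 effects did not differ by the interaction test (0.17, SE 0.148, adjusted p = 0.448). WDR77 and TDRD3 are the members called in the same direction in both poly(A) experiments, which share no library. Of all genes 56.7% were called after siPADI2 and 46.9% with R1810A, and the share called in the same direction in both was not computed. PADI2 RNA was low in the treated libraries of both experiments.

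Of the 10 members, 4 differed between the siPADI2 and R1810A effects (PRMT6, WDR77, CARM1 and PRMT7), where 26.1% of 19884 genes did.

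Levels between genes were compared per kilobase of exonic length. In siCtrl poly(A) RNA WDR77 was highest, at 29.9 ± 0.842 CPM per kb (SD, n = 2), followed by CARM1 (23.0 ± 0.0459) and PRMT1 (22.1 ± 1.57), whose libraries overlapped. PRMT5 (18.3) and PRMT2 (17.8) came next, then PRMT6 (11.0), PRMT7 (6.64) and PRMT3 (6.33), with the last 2 overlapping. PRMT9 (3.98) and TDRD3 (3.33) were lowest and also overlapped. With siPADI2 PRMT6 led the order at 28.2 ± 0.978 CPM per kb and WDR77 was at rank 6 with 16.8 ± 0.299. The WDR77 level per kb went from 1.63 times that of PRMT5 to 0.923 times, and from 1.07 times with WT to 0.785 times with R1810A. The length used for WDR77 includes the 24.0% shared with AL390195.1, where reads could not be assigned, so its level per kb is understated. Its rank, and whether it lies above or below PRMT5, can depend on that length, while its changes between groups do not. PRMT1 is understated likewise, by its 7.6% overlap with ADM5. With WT RNAP2 the order ran from PRMT1 (24.6), PRMT6 and WDR77 (21.7 each) to PRMT7 (4.25) and TDRD3 (3.74). CARM1 (15.7) and PRMT7 were at 0.682 and 0.640 times their siCtrl values there, which was not tested. In the libraries labelled R1810A PRMT1 (23.4), PRMT5 (22.3) and PRMT6 (21.0) led and overlapped as neighbours, and PRMT9 (3.75) was lowest.

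**Figure D3:**
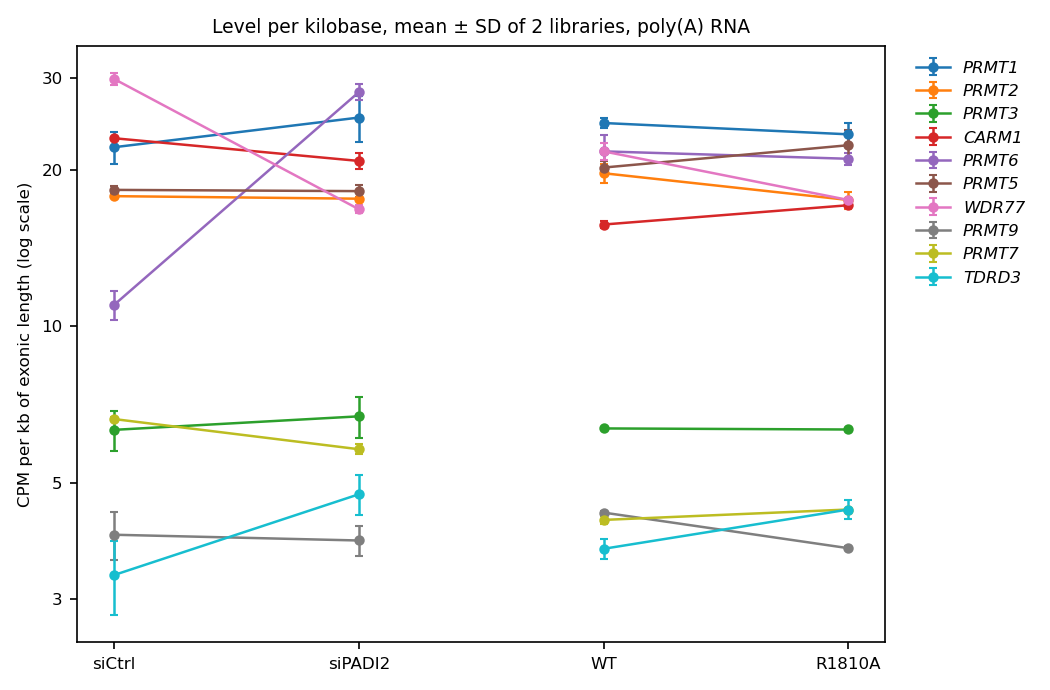
Level of each gene in poly(A) RNA as CPM per kilobase of exonic length (log axis), mean ± SD of 2 libraries per group, with lines joining the groups of 1 experiment. The PRMT6 line rises from 11.0 to 28.2 and the WDR77 line falls from 29.9 to 16.8 between siCtrl and siPADI2, and they cross.

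The 3 genes whose poly(A) levels ran most like CARM1 over the 8 libraries, among 11579 ranked, were FXYD3 (Pearson r = 0.997 on log2(CPM + 0.5)), MVK (0.995) and NR1D1 (0.995). Each was highest with siCtrl and lowest with WT, like CARM1, but over a wider range, 1.09, 1.28 and 1.14 log2 units against 0.56. For PRMT5 they were ATRN (0.968), AC022034.1 (0.967) and UBB (0.967), each highest in the libraries labelled R1810A. The 8 points are 4 pairs of libraries from 2 experiments, so these values describe a shared order of the groups.

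In chromatin-associated RNA after siPADI2, CARM1 and PRMT6 fell and the other 8 members did not pass the test. That is 2 of 10, where 32.4% of 33879 genes were called and 20.1% were called lower. Only 18720 genes had enough counts for the siPADI2 test in poly(A) RNA. The chromatin shares, here and beside the lists below, therefore include many genes unlike the members. CARM1 alone passed the fold of 1.5, which 13.5% of genes did. For 6 members the CPM values of the groups did not overlap, against 66.2% of all genes. Counts were small, between 71 and 406 per member and library with siCtrl and between 25 and 143 with siPADI2. CARM1 had 156 and 170 counts with siCtrl and 26 and 33 with siPADI2, or 12.2 and 11.6 CPM against 4.40 and 5.43 CPM. The log2 change was -1.26 (SE 0.259, adjusted p = 2.05e-05, and 0.0130 against the fold of 1.5). PRMT6 had 114 and 126 counts with siCtrl and 32 and 29 with siPADI2, or 8.90 and 8.56 CPM against 5.41 and 4.77 CPM. Its log2 change was -0.77 (SE 0.271, adjusted p = 0.0180). The PRMT6 call was lost when any of the 4 libraries was left out (adjusted p between 0.0617 and 0.147) with total counts as library sizes (0.118) and with DESeq2 (0.165).

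**Figure D4:**
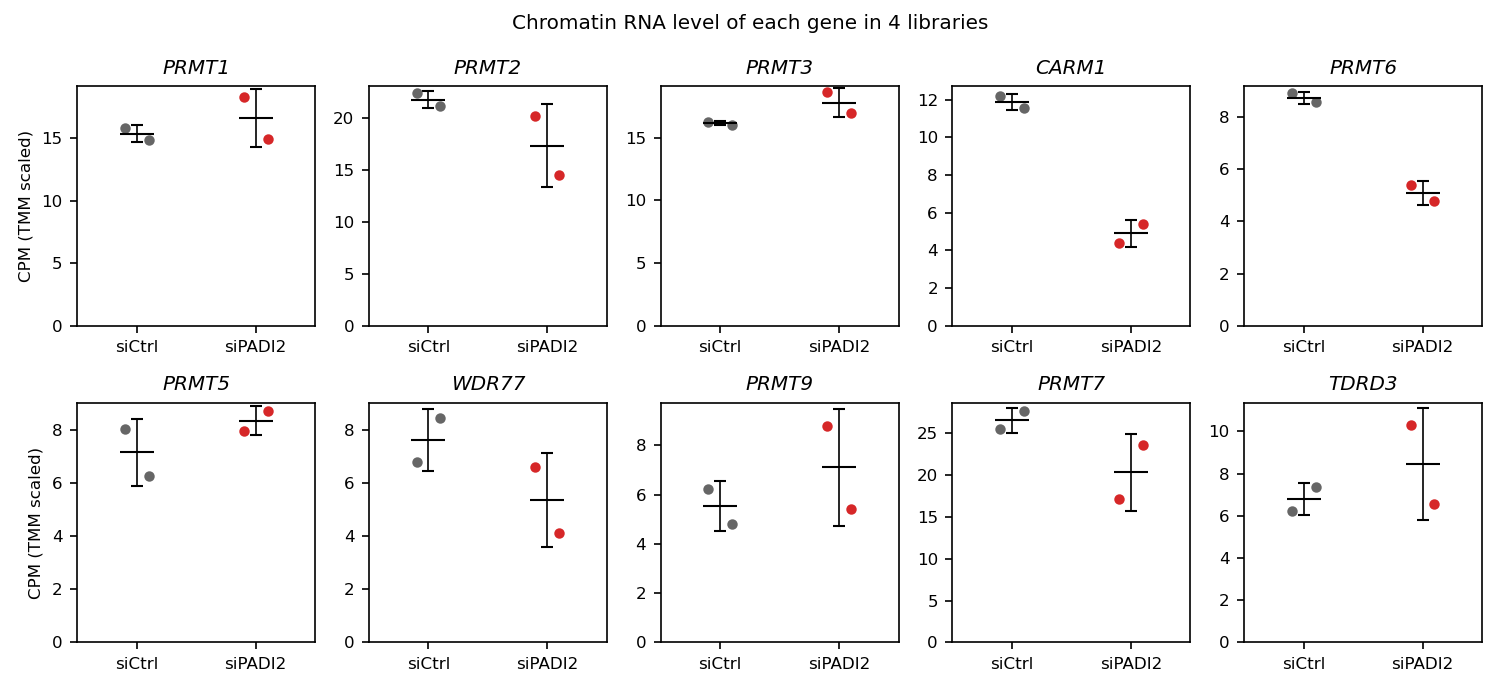
Chromatin RNA level of each gene in CPM (y axis, from 0, own scale per panel) in 2 siCtrl and 2 siPADI2 libraries. Points are single libraries and bars the mean ± SD. CARM1 (11.9 against 4.91 CPM) and PRMT6 (8.73 against 5.09 CPM) are lower in both siPADI2 libraries, and PRMT1, PRMT5, PRMT9 and TDRD3 overlap.

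The chromatin change went with GC content over the whole transcriptome. Among 16583 protein-coding genes the median log2 change was 0.26 below 40% GC, 0.07 at 45 to 50% and -0.99 at 60% and above. CARM1 has 60.4% GC in its transcripts and PRMT6 49.4%. A correction for each library's trend on GC content left a smaller trend of the opposite sign. The medians were then -0.10 below 40% GC, 0.16 at 55 to 60% and 0.11 at 60% and above. With this correction CARM1 was at -0.23 (adjusted p = 0.562) and no longer called, and PRMT6 was at -0.69 (adjusted p = 0.0491). PRMT1 (57.5% GC) was called higher at 0.98 (adjusted p = 0.000190). Corrected values of genes with a high GC content therefore carry a small upward shift.

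The chromatin libraries also held reads of genes that the poly(A) libraries did not show. PTPRC, CD3E, COL1A2, KRT5 and KRT14, markers of other cell types, were at 0 to 0.0973 CPM in poly(A) RNA and at 2.71 to 28.1 CPM in chromatin RNA. Among protein-coding genes of at least 1000 exonic bases, 1154 had 0 counts in all 8 poly(A) libraries. The 306 of these within 5 points of the GC content of CARM1 stood at 1.48 CPM per kb with siCtrl and 0.704 with siPADI2 in chromatin RNA, summed over the genes, a log2 ratio of -1.07. CARM1 itself went from 2.85 to 1.18 CPM per kb, a log2 ratio of -1.27, so it stood 1.93 and 1.68 times above genes with no poly(A) RNA. For PRMT6, the 427 such genes of similar GC content were level, at 0.908 and 0.866 CPM per kb (-0.07), while PRMT6 went from 3.29 to 1.92 (-0.78). The 10 members stood between 1.93 and 4.24 times above these genes with siCtrl and between 1.68 and 4.99 times with siPADI2. These are ratios to summed levels, and single genes reached higher. With siPADI2, from 0.0% (PRMT1, library 1) to 30.7% (PRMT9, library 2) of the single genes of similar GC content were at or above the member. The shares were 27.1% and 18.0% for CARM1 and 8.2% and 14.1% for PRMT6. How much of each member's chromatin value is of the same kind as the reads in these genes was not tested.

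**Figure D5:**
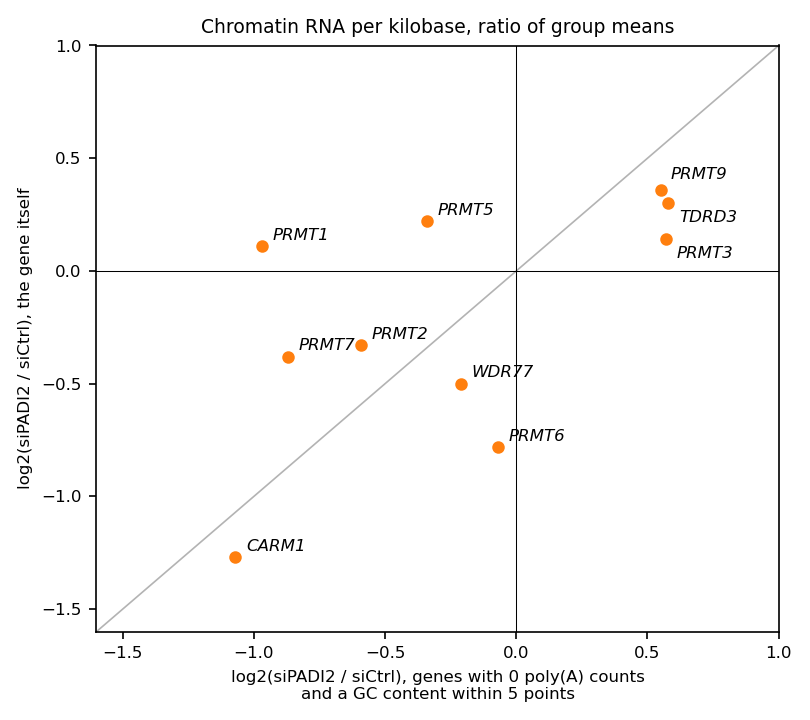
Log2 ratio of siPADI2 to siCtrl in chromatin RNA per kilobase (group means) of each member, against that of protein-coding genes with 0 poly(A) counts and a GC content within 5 points of it. CARM1 lies near the diagonal (-1.07, -1.27), and PRMT6 lies below it (-0.07, -0.78), while PRMT1 (-0.97, 0.11) lies above.

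PRMT6 moved in opposite directions in the 2 RNA fractions after siPADI2, up in poly(A) RNA and down on chromatin. The difference between its effects was -2.28 on the log2 scale (SE 0.413, adjusted p = 4.12e-06) in a joint fit of both fractions, whose scaling put the median over all genes at -0.16. The PRMT6 difference between fractions, to which the poly(A) rise contributes, was called in all 13 alternatives. CARM1 differed by -1.28 (SE 0.413, adjusted p = 0.0300), but with GC correction by -0.02, and without poly(A) siPADI2 library 1 or library 2 it lost the call (adjusted p = 0.141 and 0.136). Of the 10 members 2 differed, where 8.05% of 44615 genes did. Only 18720 genes had enough counts for the siPADI2 test in poly(A) RNA, so that share includes many genes unlike the members and is not a like comparison. Read as a ratio of chromatin to poly(A) CPM, PRMT6 went from 0.301 with siCtrl to 0.0681 with siPADI2, where the median of 10716 protein-coding genes went from 0.232 to 0.196. The log2 differences of the other 8 members lay between -0.46 and 0.27 and were not called. WDR77 had 87 and 124 chromatin counts with siCtrl and 39 and 25 with siPADI2, a log2 change of -0.51 (SE 0.276) that did not pass the test (adjusted p = 0.140). Its difference from the poly(A) effect was 0.18 (SE 0.415, adjusted p = 1.00).

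The genes around the enzymes were described from lists of cofactors, the methyl donor cycle, readers and substrates. Their counts stand beside these shares of all tested genes: 28.8% called higher and 27.9% lower after siPADI2, 22.6% higher and 24.3% lower with R1810A, and 12.2% higher and 20.1% lower on chromatin. A further arginine methyltransferase, METTL23, rose after siPADI2 from 35.4 to 52.4 CPM (log2 0.51, adjusted p = 1.49e-05) and in the libraries labelled R1810A from 36.9 to 45.5 CPM (0.31, adjusted p = 0.00167). NDUFAF7, the mitochondrial complex I methyltransferase, rose after siPADI2 (0.30, adjusted p = 0.0194), 1 of the 2 was called without siCtrl library 1, siCtrl library 2 or siPADI2 library 2, and PRMT8 was too low to test in poly(A) RNA. Of 7 cofactors and regulators, 2 rose and 3 fell after siPADI2, and 1 rose and 2 fell with R1810A, counts close to the shares over all genes. BTG1 and BTG2, which bind PRMT1, fell in both: BTG1 by 0.78 and 1.25 on the log2 scale and BTG2 by 0.57 and 0.79. BTG1 went from 285 ± 33.0 to 172 ± 1.01 CPM after siPADI2 and from 333 ± 12.1 to 139 ± 1.09 CPM with R1810A (SD, n = 2). It also fell on chromatin (-0.63, adjusted p = 0.0109), a call that held in 5 of the 9 alternatives. Those that lost it include DESeq2 and the fits without siCtrl library 1 or siPADI2 library 2. COPRS, which directs PRMT5 to histones, rose by 0.40 and 0.28.

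Of 7 genes of the methyl donor cycle, 0 rose and 2 fell after siPADI2 (5 had called changes with total counts as library sizes), and 2 rose and 4 fell with R1810A. Over all genes 27.9% fell after siPADI2 and 24.3% with R1810A, so the siPADI2 count of falls is near that share. MAT2A, which makes S-adenosylmethionine, fell from 603 to 360 CPM after siPADI2 (-0.80, adjusted p = 3.67e-10) and from 370 to 284 CPM with R1810A (-0.38, adjusted p = 0.00132). GNMT, which consumes S-adenosylmethionine by methylating glycine, fell from 96.9 to 46.6 CPM after siPADI2 (-1.11) but rose from 27.5 to 35.0 CPM with R1810A (0.36). Its effects differed by -1.50 (SE 0.134, adjusted p = 4.83e-06). AMD1, which draws the donor into polyamine synthesis, fell with R1810A by 0.50 on the log2 scale. On chromatin 0 of the 7 were called with edgeR or DESeq2, 0 had an unadjusted p under 0.05, and 2 were called with the GC correction.

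Among other readers, 2 of 10 measured genes rose and 5 fell after siPADI2, and 3 of 12 rose and 3 fell with R1810A, the latter close to the 22.6% and 24.3% of all genes. TDRD5, a Tudor protein of germ cells, was well expressed here and rose from 44.3 to 81.4 CPM after siPADI2 (0.82, adjusted p = 2.81e-10) and from 56.1 to 74.5 CPM with R1810A (0.41, adjusted p = 0.000108). TDRD12 and TDRD6 were called in both comparisons (-1.64 and -2.15, and 1.42 and 1.59) at levels of 2.33 CPM or less. The TDRD6 call after siPADI2 was lost with DESeq2 and without siCtrl library 2 or siPADI2 library 2 (adjusted p up to 0.242). AKAP1 fell with R1810A (-0.45). On chromatin SND1 fell (-0.59) and SMN1 and TDRD1 were called higher, calls that ended with the GC correction, where 1 of the 13 readers was called, and with DESeq2, where 0 were. Of the 13, 2 were called without siCtrl library 1, 0 without siCtrl library 5, 2 without siPADI2 library 1 and 1 without siPADI2 library 2, and reads of SMN1 cannot be told from those of its near-identical copy SMN2. Of the 8 genes of the SMN complex, which assembles Sm proteins after their methylation by PRMT5, 1 was called after siPADI2 in poly(A) RNA (GEMIN8, -0.35, adjusted p = 0.00216), and 0 with siPADI2 library 2 left out. With R1810A edgeR and DESeq2 called 0 of the 8, and 1 had an unadjusted p under 0.05. On chromatin GEMIN4 fell (-1.12) and GEMIN6 rose (0.62), and neither was called with the GC correction or without siPADI2 library 2, nor GEMIN6 without siCtrl library 5.

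Of 8 partners of TDRD3 and R-loop factors, 2 rose and 1 fell after siPADI2, where 56.7% of all genes were called, and 3 rose and 3 fell with R1810A, where 46.9% were. Without siCtrl library 1, 5 of the 8 were called after siPADI2, as with GC correction, and 6 were with total counts. FXR1 rose from 472 to 740 CPM (0.59, adjusted p = 1.70e-07) and from 539 to 725 CPM (0.43, adjusted p = 0.000264), FXR2 rose by 0.60 after siPADI2, and the helicase DHX9 fell by 0.52 and 0.35. XRN2, the nuclease of transcription termination, rose with R1810A (0.30). TOP3B, the topoisomerase that TDRD3 brings to RNA and chromatin, did not pass the test in poly(A) RNA (0.22, adjusted p = 0.0797, and 0.02, adjusted p = 0.963). On chromatin it fell from 13.4 ± 0.694 to 3.74 ± 1.46 CPM (SD, n = 2), a log2 change of -1.83 (SE 0.269, adjusted p = 8.72e-10), which was -0.88 with the GC correction (adjusted p = 0.0171).

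Among substrates, of 21 measured RNA-binding and Sm proteins 0 rose and 11 fell after siPADI2, where 28.8% and 27.9% of all genes did (median log2 change -0.21 against 0.01 over all genes). With R1810A 1 rose and 12 fell, where 22.6% and 24.3% of all genes did (median -0.19 against -0.02). With RLE scaling, or with total counts as library sizes, 6 of the 21 were called with R1810A, and 5 without WT library 1, 8 without WT library 2 and 7 without R1810A library 1. SNRPB, a core Sm protein methylated by PRMT5, fell from 228 to 135 CPM (-0.81, adjusted p = 5.27e-11) and from 203 to 145 CPM (-0.48, adjusted p = 5.51e-05). FBL fell after siPADI2 (-0.44), and ALYREF fell with R1810A (-0.40). On chromatin 5 of the 21 fell, among them LSM4 (-1.40), ALYREF (-0.78) and SNRPB (-0.68), and with the GC correction these stood at -0.36, 0.14 and 0.23 and were not called. DESeq2 called 1 of the 21 there, and edgeR 2 without siCtrl library 1 or siCtrl library 5 and 1 without siPADI2 library 2. Of 8 CARM1 substrates, 1 rose and 3 fell after siPADI2, and 0 rose and 5 fell with R1810A, against the same shares. ELAVL1 fell in both (-0.64 and -0.44), NCOA3 rose after siPADI2 (0.51), PABPC1 fell (-0.29, a call lost with total counts and without siCtrl library 2 or siPADI2 library 2), and EP300 fell with R1810A (-0.37). EP300 also fell on chromatin (-0.65, adjusted p = 0.00912), a call lost without siCtrl library 1 or siPADI2 library 2 and with DESeq2.

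Of 5 measured genes of arginine deimination and dimethylarginine hydrolysis, 3 fell after siPADI2 and 4 fell with R1810A, PADI2 among them, where 27.9% and 24.3% of all genes fell. PADI3, the related deiminase, fell from 37.6 to 16.4 CPM after siPADI2 (-1.25, adjusted p = 1.98e-13) and from 94.7 to 38.7 CPM with R1810A (-1.29, adjusted p = 5.19e-09). DDAH1, which hydrolyses free asymmetric dimethylarginine, fell by 0.41 and 0.35 on the log2 scale. On chromatin 5 of 7 fell with edgeR and 3 with DESeq2, where edgeR called 20.1% of all genes lower. That share was not matched to the 7 on GC content, with which the chromatin change went. The 5 called with edgeR were PADI2, the siRNA target, PADI3 (-1.21), PADI1 (-1.18), PADI4 (-1.0) and DDAH2 (-0.63). PADI1 and PADI4 were too low to test in poly(A) RNA, but stood at 8.95 and 7.03 CPM on chromatin with siCtrl. How much of these values is of the kind seen in genes with 0 poly(A) counts was not tested. With the GC correction PADI3 and PADI1 stood at -0.46 and -0.45 and were not called.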

How the data were processed

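The deposited values are raw counts per gene in 1 table for each library. The submitters' processing notes name Trimmomatic for trimming and STAR for alignment. As to counting, per the file headers, the authors counted fragments over GENCODE 19 exons on hg19 with featureCounts 1.5.1 (poly(A) RNA, TruSeq Stranded mRNA kit) or 1.4.6-p2 (chromatin RNA, TruSeq Stranded Total RNA with Ribo-Zero depletion), strand option 2, without an option for multi-mapping reads, so intronic reads do not enter the values.

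Each comparison was fitted on its 4 libraries with edgeR 4.0.16 in R 4.3.3 (TMM scaling, filterByExpr, robust quasi-likelihood F test, Benjamini-Hochberg adjustment over all genes tested, threshold 0.05), with glmTreat against a fold of 1.5. The script was run on simulated counts with the same dispersion for every gene and no trend on GC content. That run checks the code only and does not bear on the calls in these data. Differences between effects were interaction contrasts over 8 libraries. CPM values use TMM over all 12 libraries, and lengths are the union of annotated exons. Symbols came from GENCODE 29 by gene identifier (52338 of 57820 matched, and 97 of the 100 genes listed for pathways and markers). GC content came from its transcripts. The GC correction subtracts each library's lowess trend (span 0.3) on GC content. Promoters are from RefSeq.

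Within groups the chi-square per degree of freedom was 3.55 to 91.7, so no 2 libraries were counted as 1. Alternatives were RLE scaling, total counts as library sizes, no filter, GC correction, DESeq2 1.42.0, a replicate block and leaving out each library. The comparison with genes of 0 poly(A) counts was added after seeing the data. Members and lists were chosen with earlier results of these data known. Named genes were all 10 members, the 3 most changed called genes of each list in each comparison, and the 3 genes most correlated with CARM1 and with PRMT5. Some genes that this rule names are not reported here.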

Additional observations from a re-analysis of the deposited data

Results flagged for a closer look

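Effects of the same gene differed between experiments or RNA fractions in 6 cases, each by an interaction test with edgeR on 8 libraries (adjusted p over all genes tested). Between siPADI2 and R1810A in poly(A) RNA, PRMT6 differed by 1.32 on the log2 scale (SE 0.102, adjusted p = 7.13e-07), WDR77 by -0.61 (SE 0.0895, adjusted p = 0.000193), CARM1 by -0.36 (SE 0.0866, adjusted p = 0.00744) and PRMT7 by -0.34 (SE 0.0920, adjusted p = 0.0131). Between chromatin and poly(A) RNA after siPADI2, PRMT6 differed by -2.28 (SE 0.413, adjusted p = 4.12e-06) and CARM1 by -1.28 (SE 0.413, adjusted p = 0.0300), the latter -0.02 with GC correction. The groups hold 2 libraries each, so no library could be tested as standing apart from its group.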

How the results depend on the processing

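Of the 10 members, 5 were called after siPADI2 in poly(A) RNA, 3 with no filter on low counts and 7 with GC correction (PRMT1 and PRMT9 in addition). The calls of CARM1 and PRMT7 were lost in some fits with a library left out. Past the fold of 1.5 there were 2, and 1 with total counts as library sizes. With R1810A 4 were called, 2 with DESeq2, 6 with the replicate block (CARM1 and PRMT5 in addition, adjusted p = 0.00317 and 0.00074), 7 with the replicate block and GC correction together, and 1 to 3 with a library left out. Same-numbered libraries deviated together (correlation 0.125 for siPADI2 and 0.451 for R1810A). With 2 pairs and no label that pairs them, the number was not used in the main fits and entered only as the replicate block. On chromatin 2 were called, 1 with total counts as library sizes, with DESeq2 and with any library left out. The 1 past the fold of 1.5 became 0 with total counts, with GC correction and without siPADI2 library 1. Between the siPADI2 and R1810A effects 4 differed, 2 with no filter and at most 5 in any alternative. The differences of CARM1 and PRMT7 were no longer called in some fits with a library left out. Between chromatin and poly(A) RNA 2 differed, 1 with GC correction and 1 to 2 with a library left out. No paired analysis was possible because the chromatin groups share fewer than 2 replicate numbers, for chromatin RNA.

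Total counts as library sizes moved all siPADI2 poly(A) values by a median of 0.18, with 67.0% of calls higher in place of 50.8%, and the siPADI2 minus R1810A values by 0.15 (68.0% in place of 45.1%). The chromatin values moved by 0.11. GC correction took the share of chromatin calls that were higher from 37.8% to 61.7%. RLE scaling moved chromatin minus poly(A) by 0.27 (48.8% in place of 21.2%).

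Signs turned only for members that were not called, and for ALYREF and SNRPB on chromatin with GC correction (0.14 and 0.23). After siPADI2 in poly(A) RNA, total counts gave 0.11 for PRMT2, 0.12 for PRMT5 and 0.08 for PRMT9. GC correction gave 0.00242 for PRMT2 (0.0019 with the replicate block) and -0.10 for PRMT3 (-0.10 with the block). With R1810A PRMT3 was 0.02 with RLE or DESeq2 and 0.06 with total counts, and PRMT6 0.02 with total counts. On chromatin GC correction gave 0.14 for PRMT2, -0.18 for PRMT3, 0.36 for PRMT7 and -0.02 for TDRD3. For siPADI2 minus R1810A PRMT3 was -0.00207 with RLE, -0.06 with GC correction and -0.00261 with DESeq2. For chromatin minus poly(A), RLE gave 0.16 (PRMT1), 0.29 (PRMT3), 0.05 (PRMT7) and 0.04 (TDRD3). DESeq2 gave 0.16, 0.29, 0.05 and 0.03 for the same genes. Total counts gave 0.04 for PRMT3, and GC correction 0.86 (PRMT1), 0.18 (PRMT2), 0.62 (PRMT7) and -0.14 (PRMT9). The cause was not tested.

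With a library left out, signs turned within these ranges: after siPADI2 in poly(A) RNA -0.07 to 0.12 (PRMT3), with R1810A -0.14 to 0.01 (PRMT1), -0.03 to 0.03 (PRMT3) and -0.09 to 0.03 (PRMT6). On chromatin they were -0.02 to 0.24 (PRMT1), -0.01 to 0.66 (PRMT9) and -0.03 to 0.59 (TDRD3), and for siPADI2 minus R1810A -0.09 to 0.10 (PRMT3). For chromatin minus poly(A) they were -0.39 to 0.13 (PRMT1), -0.43 to 0.21 (PRMT3), -0.17 to 0.48 (PRMT5), -0.57 to 0.08 (PRMT7), -0.10 to 0.79 (PRMT9), -0.77 to 0.17 (TDRD3) and -0.10 to 0.69 (WDR77). The chromatin libraries held at most 143 counts per member with siPADI2, which limits the precision of the chromatin values.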
